A study of Homo sapiens with 10 samples.

Results

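The zinc finger gene clusters of human chromosome 19 were taken as 6 windows of the hg19 build, and an m6A peak belonged to them when its summit lay inside a window. Counted along the chromosome, window 1 runs from 11.6 to 12.8 Mb, window 2 from 19.8 to 24.3 Mb and window 3 from 36.7 to 38.3 Mb. Window 4 runs from 44.3 to 45 Mb, window 5 from 52.3 to 53.9 Mb and window 6 from 57.0 to 59.1 Mb. The windows are set by position alone, and they were chosen with earlier results of these data known. The windows span 11.7 Mb, which is 19.8% of chromosome 19 and 0.378% of all chromosome spans analysed. They held 265 of the 38106 peaks in 5 lists.

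N6-methyladenosine (m6A), the most common internal modification of messenger RNA, was mapped by MeRIP-seq, in which an antibody pulls methylated fragments out of broken RNA for sequencing beside the unenriched input. The cells were 5 established lines from colorectal cancers. HCT116, HT29 and HCT15 carry the tissue label colorectum, while COLO320DM and COLO205 carry the label colon. Each line gave 1 immunoprecipitation (IP) and 1 input, 10 samples in all, with no treatment named and no replicate, so every difference between lines compares these libraries and no test between them was made.

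The gene clusters that these windows were set to cover code for zinc finger proteins, and other genes lie among and beside them. Most of the zinc finger proteins join a KRAB domain to a long array of DNA-binding zinc fingers. The KRAB domain recruits the co-repressor TRIM28, and many members of the family silence transposable elements. The family grew by tandem duplication, which left its genes side by side in clusters on chromosome 19, and the finger array is usually coded by 1 long last exon. m6A is known to favour long internal exons and the surroundings of stop codons, and messenger RNAs of this family are typically scarce.

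Gene order in the RefSeq table, which has another build (GRCh38.p14), shows how concentrated the family is. Of 1451 protein-coding genes of chromosome 19, 267 carried a zinc finger symbol. Of these, 215 (80.5%) stood in 6 runs of at least 20 such genes, with no more than 3 other genes in a row between them. The next longest run had 12. Along the chromosome the runs hold 24 genes (ZNF627 to ZNF791), 37 (ZNF101 to ZNF254), 29 (ZNF565 to ZNF573), 20 (ZNF283 to ZNF180), 40 (ZNF577 to ZNF331) and 65 (ZNF787 to ZNF446). They were matched to the windows by their order alone, so their edges need not coincide. Beyond ZNF446 the table lists 6 more protein-coding genes to the chromosome end, SLC27A5, ZBTB45, TRIM28, CHMP2A, UBE2M and MZF1, and window 6 reaches to that end. Peaks are given below by their hg19 position on chromosome 19, counted from 1, and none was assigned to a gene.

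The COLO205 list held 9998 peaks, the HCT116 list 9418, the HT29 list 8941, the COLO320DM list 8832 and the HCT15 list 917. IP depth recovered from the lists was 2.99 M reads (M for mega) for COLO205, 1.38 M for HCT116, 2.13 M for HT29 and 1.47 M for COLO320DM. HCT15 had 5.02 M, which the peak caller scaled down, and its list is far shorter than the others, which are called the 4 long lists here. Intervals are exact 95% intervals, and they cover counting error only.

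The zinc finger clusters were sparser in peaks than the rest of chromosome 19 in HCT116, HT29 and COLO205, while in COLO320DM the interval of the ratio included equal density. COLO320DM had 116 cluster peaks, HT29 had 59, HCT116 and COLO205 had 45 each, and HCT15 had 0. The counts correspond to 9.91 peaks per Mb in COLO320DM (interval 8.19 to 11.9), 5.04 in HT29 (3.84 to 6.50) and 3.85 in both HCT116 and COLO205 (2.81 to 5.15). The COLO320DM interval lies above those of the other lists, although its list is the shortest of the 4 long ones. With a −log10 q of 5 or more, COLO320DM kept 42 cluster peaks, HT29 33, COLO205 26 and HCT116 24. These were 36.2% of cluster peaks in COLO320DM, 55.9% in HT29, 57.8% in COLO205 and 53.3% in HCT116. Over the whole lists the shares were 54.6%, 59.5%, 59.5% and 53.9% in the same order. Cluster densities per Mb were not compared between lists under this filter.

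Chromosome 19 is rich in genes, and against the other chromosomes the clusters were not sparse. The other chromosomes together held 2.67 peaks per Mb in COLO320DM, 2.75 in HT29, 2.80 in HCT116 and 3.09 in COLO205, below the cluster density of the same list in each case. The clusters, with 0.378% of the spans, held 1.34% of the COLO320DM list (1.11% to 1.61%) and 0.668% of the HT29 list (0.509% to 0.861%), and both intervals lie above that share. They held 0.489% of the HCT116 list (0.357% to 0.654%) and 0.458% of the COLO205 list (0.334% to 0.612%), and both intervals include it.

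Set against the rest of the chromosome, HCT116 had 3.85 peaks per Mb in the clusters and 14.2 outside them, a density ratio of 0.270 (0.195 to 0.366). In COLO205 the density was 3.85 inside and 8.82 outside, a ratio of 0.436 (0.313 to 0.594). HT29 had 5.04 inside and 8.90 outside, a ratio of 0.567 (0.424 to 0.745). These 3 intervals lie below 1. COLO320DM had 9.91 inside and 8.94 outside, a ratio of 1.11 (0.895 to 1.36), and its interval includes 1. Among peaks with a −log10 q of 5 or more, the COLO320DM ratio was 0.712 (0.50 to 0.992), on 42 cluster peaks, an interval below 1. Without window 6 it was 0.839 (0.644 to 1.08).

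As a share of all chromosome 19 peaks, the clusters held 21.5% in COLO320DM (18.1% to 25.2%), 12.3% in HT29 (9.47% to 15.5%), 9.72% in COLO205 (7.18% to 12.8%) and 6.25% in HCT116 (4.59% to 8.27%). Only the COLO320DM share reached the 19.8% of the chromosome that the windows cover. HCT15 had 0 cluster peaks of 26 on chromosome 19, where a limit of 3 counts allows a share of up to 11.5% and the exact interval reaches 13.2%. Its density ratio of 0 has an upper limit of 0.618, and that range includes the ratios of HCT116, HT29 and COLO205.

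**Figure D1:**
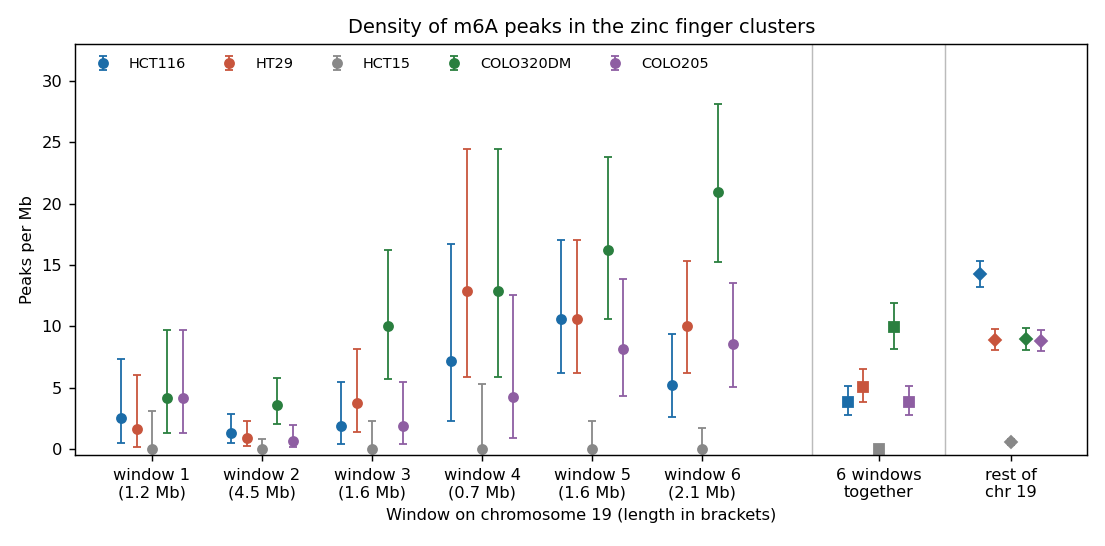
Peaks per Mb (vertical axis) in each of the 6 windows, in the 6 windows together (squares) and on the rest of chromosome 19 (diamonds), for the 5 lists. Bars are exact 95% Poisson intervals for counting error with 1 library per line. COLO320DM stands at 9.91 per Mb over the windows together and HCT116, HT29 and COLO205 at 3.85 to 5.04, while on the rest of the chromosome HCT116 is highest at 14.2.

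The windows differed in density within each of the 4 long lists. Window 2, the longest and the one nearest the centromere on the short arm, was the sparsest in each of them, and over all lists it held 29 peaks or 6.44 per Mb. HCT116 had 1.33 peaks per Mb there, HT29 0.889, COLO320DM 3.56 and COLO205 0.667. Windows 5 and 6 were the most crowded over all lists, with 73 peaks (45.6 per Mb) and 94 peaks (44.8 per Mb). The densest single window was window 5 in HCT116 (10.6 per Mb), window 4 in HT29 (12.9) and window 6 in COLO320DM (21) and COLO205 (8.57).

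With all peaks counted and no filter on q, COLO320DM had more than any other list in windows 2, 3, 5 and 6. It shared the highest count in windows 1 and 4. In window 2 it had 16 peaks, against 6 in HCT116, 4 in HT29 and 3 in COLO205. In window 3 it had 16, against 3 in HCT116, 6 in HT29 and 3 in COLO205. The COLO320DM interval in window 3, 5.72 to 16.2 per Mb, lies above that of HCT116 and COLO205 (0.387 to 5.48) and overlaps that of HT29 (1.38 to 8.16).

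Window 5 held 26 peaks in COLO320DM, 17 in both HCT116 and HT29, and 13 in COLO205, and all of these intervals overlap. Window 6 held 44 in COLO320DM, 21 in HT29, 18 in COLO205 and 11 in HCT116. In peaks per Mb the COLO320DM interval there, 15.2 to 28.1, lies above those of HCT116 (2.61 to 9.37) and COLO205 (5.08 to 13.5) and meets that of HT29 (6.19 to 15.3). Window 1 held 5 peaks in COLO320DM, 5 in COLO205, 3 in HCT116 and 2 in HT29. Window 4, the shortest, held 9 in COLO320DM, 9 in HT29, 5 in HCT116 and 3 in COLO205. The intervals of the 4 lists overlap in windows 1 and 4.

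Cut into 49 bins of 250 kb, the windows had a peak of COLO320DM in 34 bins, of HCT116 in 23, of HT29 in 23 and of COLO205 in 20. No list had a peak in 10 of the bins. A list with more peaks reaches more bins by number alone, so these bin counts do not show a wider spread of COLO320DM. The most crowded stretch was the end of window 6. From 58.75 to 59.1 Mb, a strip chosen after its values were seen, COLO320DM had 28 peaks, or 24.1% of its cluster peaks. HT29 had 11 peaks in the strip, HCT116 6 and COLO205 6. Without the strip the COLO320DM density ratio was 0.867 (0.681 to 1.09).

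**Figure D2:**
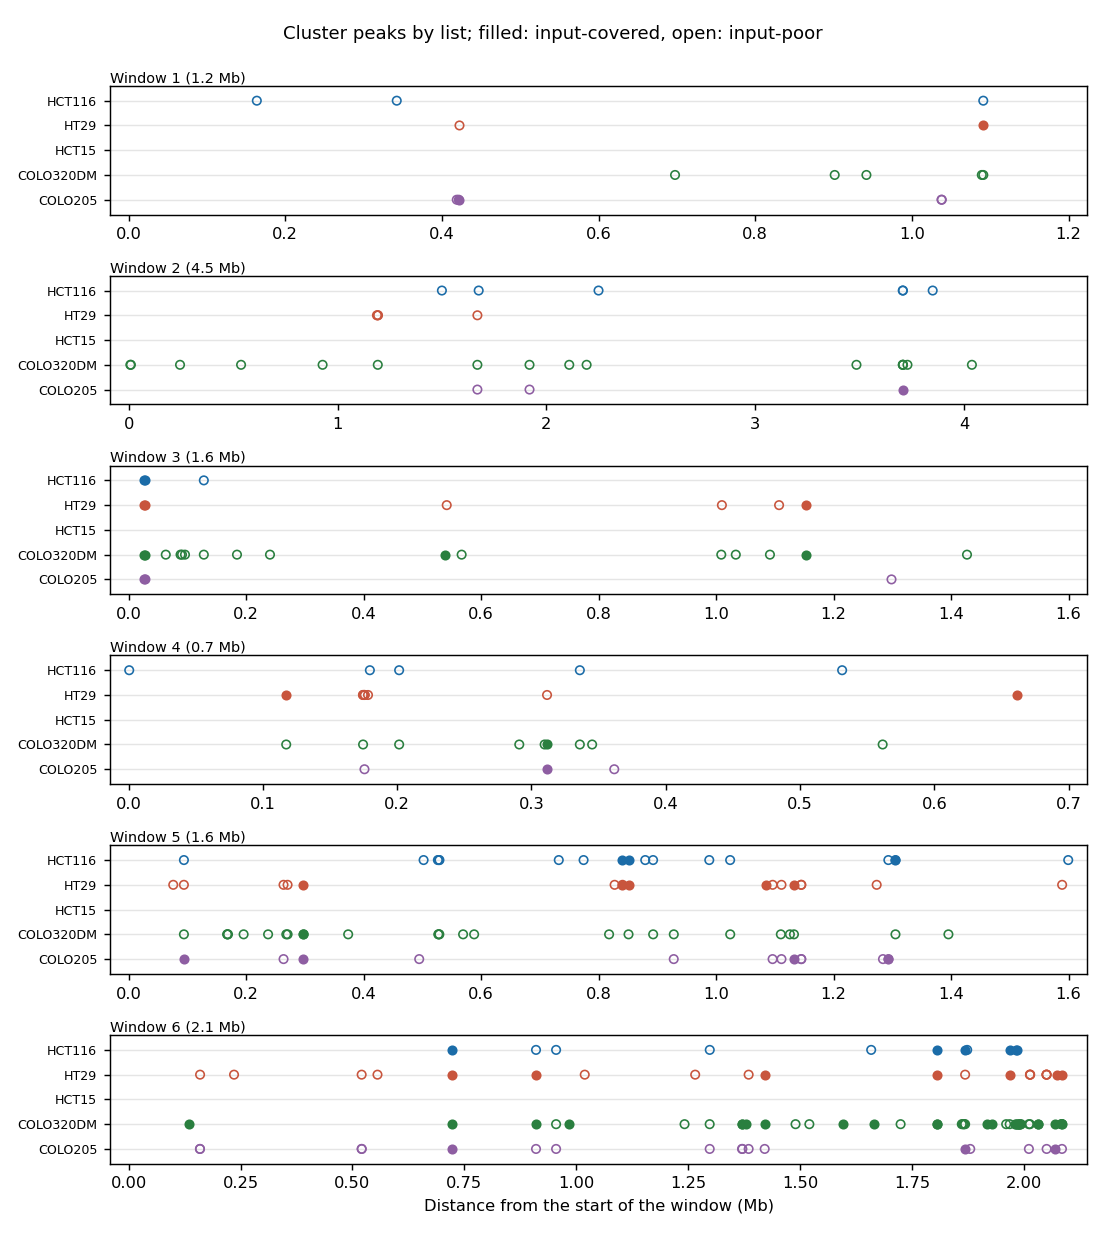
Every cluster peak by its distance in Mb from the start of its window, 1 panel per window and 1 row per list. Filled circles are input-covered peaks and open circles input-poor peaks. COLO320DM peaks run along all 6 windows and crowd at the end of window 6, where 15 of 28 are input-covered, and the HCT15 row is empty.

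Most cluster peaks stood on little input. The deposited fold and p-value give back the IP reads over a summit and the local input background, and a peak is called input-covered here when that background reaches 1 input fragment, and input-poor below that. In the clusters 24.4% of HCT116 peaks were input-covered (12.9% to 39.5%), against 73.2% on the rest of chromosome 19 and 58% of the whole HCT116 list. COLO320DM had 26.7% in the clusters (18.9% to 35.7%), against 78.1% on the rest of the chromosome and 62.2% of its list. COLO205 had 24.4% (12.9% to 39.5%), against 55.0% and 51.4%.

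In HT29 the gap was smaller, with 30.5% of cluster peaks input-covered (19.2% to 43.9%), against 35.1% on the rest of the chromosome and 38.7% of its list. That interval includes both of the other shares. In HCT116, COLO320DM and COLO205 the cluster interval lies below both of them. HCT15, with 20.1% of its list input-covered, had no peak in the clusters. A low local input does not tell scarce transcripts from transcripts that the library did not sample. With 1 threshold for all lists, scaled to input depth, the cluster shares were 13.3% in HCT116 and 11.9% in HT29, and 19% in COLO320DM and 2.22% in COLO205. With a −log10 q of 5 or more, the HCT116 share was 37.5% (18.8% to 59.4%) of 24 peaks. Under the common threshold and the q filter, shares outside the clusters were not computed. These values therefore do not show whether the gap persists.

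Summits in the clusters also had fewer IP reads than summits on the rest of the chromosome in HCT116, COLO320DM and COLO205. In HCT116 the median was 5 reads in the clusters (4 to 7), 16 on the rest of chromosome 19 and 11 over the list. In COLO320DM it was 6 in the clusters (5 to 7), 16 on the rest and 12 over the list. COLO205 had a median of 7 in the clusters (6 to 8), 9 on the rest and 9 over the list. The HT29 medians were 6 in the clusters, 6 on the rest and 8 over the list. Fewer than 5 reads supported 19 of 45 cluster peaks in HCT116 (42.2%) and 42 of 116 in COLO320DM (36.2%), against 14.7% and 8.73% on the rest of the chromosome. Over the whole HCT116 and COLO320DM lists the shares were 25.1% and 20.4%. In HT29 and COLO205 the cluster shares were near those elsewhere. Fewer than 5 reads supported 10 of 59 cluster peaks in HT29 (16.9%), against 18.5% on the rest and 17.1% of the list. In COLO205 they supported 6 of 45 (13.3%), against 13.9% and 13.8%. With at least 5 reads required, the density ratio of all peaks was 0.775 in COLO320DM (0.596 to 0.996), an interval that no longer includes 1. It was 0.183 in HCT116 (0.118 to 0.271), 0.439 in COLO205 (0.307 to 0.612) and 0.577 in HT29 (0.419 to 0.780).

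**Figure D3:**
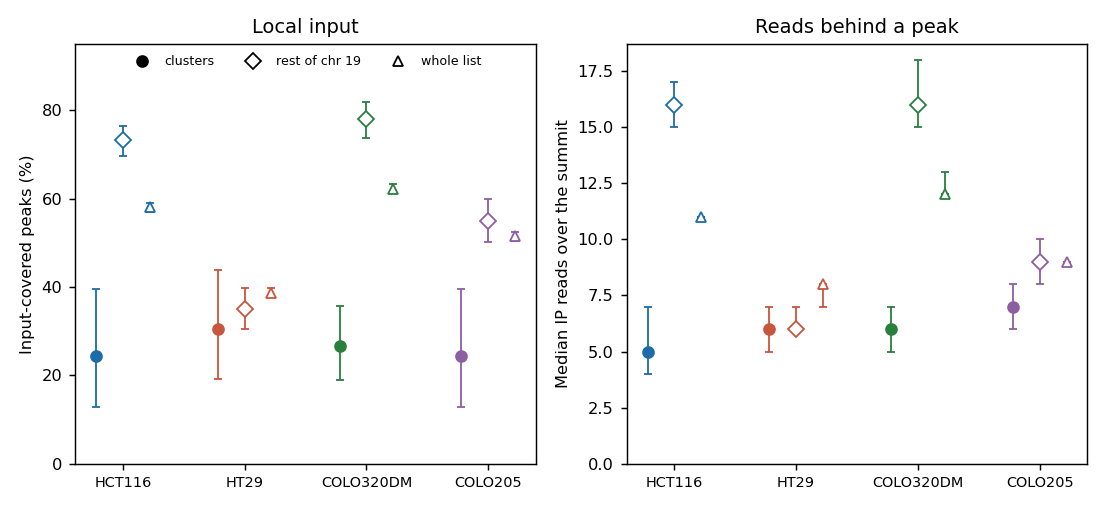
Left, the percentage of input-covered peaks with exact binomial 95% intervals. Right, the median number of IP reads over the summit with exact order-statistic intervals, for cluster peaks (filled circles), the rest of chromosome 19 (diamonds) and the whole list (triangles). HCT116 and COLO320DM cluster peaks, at 24.4% and 26.7% input-covered and 5 and 6 reads, stand below the rest of the chromosome, while HT29 shows little gap.

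Input coverage also varied between the windows. Over all lists, 41 of the 94 peaks of window 6 were input-covered (43.6%), as were 10 of 28 in window 3 (35.7%). The shares were 13 of 73 in window 5 (17.8%), 4 of 26 in window 4 (15.4%), 2 of 15 in window 1 (13.3%) and 1 of 29 in window 2 (3.45%). In COLO320DM, input covered 25 of 44 peaks in window 6, 1 of 26 in window 5 and 0 of 16 in window 2. Without COLO320DM the order of windows 3 and 6 turned, with 6 of 12 peaks covered in window 3 (50%) and 16 of 50 in window 6 (32%).

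The density ratio split by input, with a limit of 1 fragment in each list. The threshold scaled to input depth was not applied to these ratios. Among input-covered peaks the clusters were sparser than the rest of chromosome 19 in every long list, with ratios of 0.0902 in HCT116 (0.0448 to 0.163), 0.194 in COLO205 (0.0954 to 0.353), 0.380 in COLO320DM (0.254 to 0.549) and 0.493 in HT29 (0.284 to 0.806). Among input-poor peaks the ratio in COLO320DM was 3.70 (2.73 to 5.03), from 85 peaks in the clusters and 93 on the rest of the chromosome. The other lists had ratios below 1 in the same class, with an interval that includes 1 in HCT116 and COLO205, at 0.761 in HCT116 (0.512 to 1.10), 0.733 in COLO205 (0.493 to 1.06) and 0.606 in HT29 (0.426 to 0.844).

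Input-poor cluster peaks of COLO320DM therefore stood at 7.26 per Mb, against 1.96 per Mb on the rest of the chromosome. In the other lists they stood at 2.91 in HCT116, 2.91 in COLO205 and 3.50 in HT29. On the rest these lists had 3.82 in HCT116, 3.96 in COLO205 and 5.78 in HT29. The COLO320DM ratio thus joins a higher density in the clusters to a lower density outside them. The COLO320DM excess over its own rest of the chromosome did not rest on the weakest peaks alone. With a −log10 q of 5 or more the ratio was 2.61 (1.58 to 4.26), with at least 5 reads it was 3.11 (2.04 to 4.71), and without the strip at the end of window 6 it was 3.23 (2.34 to 4.45). How far fewer reads per peak in the clusters shaped these ratios was not tested.

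The median width in the clusters was 121 nt in HCT116 (interval 93 to 147) and 109 nt for HT29 (92 to 124), and 106.5 nt for COLO320DM (89 to 119) and 112 nt in COLO205 (93 to 158). On the rest of chromosome 19 the medians were 128, 129, 128 and 132.5 nt in the same order of lists. Over the whole lists they were 117, 129, 114 and 126 nt. In HT29 the cluster interval lies below both medians, and in COLO320DM it lies below that of the rest of the chromosome and includes that of the list. Peaks of 100 nt or less made up 47.4% of cluster peaks in COLO320DM, 35.6% on the rest of the chromosome and 42.3% of its list. The same shares were 40%, 33.8% and 40.5% in HCT116. In HT29 they were 45.8%, 33.6% and 34.1%, and in COLO205 37.8%, 31.8% and 35.4%.

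The authors' fold enrichment, the reads over the local background after adding 1 to each, had a cluster median of 5.49 in HCT116 (4.78 to 6.28) and 5.67 for HT29 (5.23 to 6.35), and 5.45 for COLO320DM (4.76 to 5.67) and 6.23 in COLO205 (5.15 to 7.39). On the rest of the chromosome the medians were 4.95, 5.48, 4.90 and 5.54 in the same order, and each cluster interval includes the median of the rest. Ranked within its own list, the median cluster peak stood at percentile 56.9 in HCT116 and 50.7 in HT29, and 53.9 in COLO320DM and 59.5 in COLO205. Among the top 10% of the list by fold were 8 of 45 COLO205 cluster peaks (17.8%), 8 of 116 in COLO320DM (6.90%), 4 of 59 in HT29 (6.78%) and 2 of 45 in HCT116 (4.44%).

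Sharing between lines was read as an overlap of at least 1 nt. Of the HCT116 cluster peaks, 48.9% overlapped a COLO320DM peak (33.7% to 64.2%), beside 38.9% over the whole HCT116 list. HT29 shared 24.4% of them (12.9% to 39.5%), beside 36.2% of the list, and COLO205 22.2% (11.2% to 37.1%), beside 41.3% of the list. The interval for COLO205 lies below the share of the list and includes the share on the rest of chromosome 19, which was 32.1%. On the rest of the chromosome, 39.0% of HCT116 peaks overlapped COLO320DM and 25.6% overlapped HT29, and the cluster intervals include both.

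Of the HT29 cluster peaks, 39.0% overlapped COLO320DM (26.5% to 52.6%), beside 26.7% of the list, and 37.3% overlapped COLO205 (25.0% to 50.9%), beside 52.2% of the list. HCT116 shared 18.6% of them (9.69% to 30.9%), beside 37.3% of the list. Of the COLO205 cluster peaks, 48.9% overlapped HT29 (33.7% to 64.2%), beside 47.8% of the list, 42.2% overlapped COLO320DM (27.7% to 57.8%), beside 29.7%, and 22.2% overlapped HCT116 (11.2% to 37.1%), beside 38.5%. The intervals of HT29 in HCT116 and COLO205 in HCT116 lie below the share of the list and below that on the rest of chromosome 19, which was 42.7% and 53.6%. That of HT29 in COLO205 lies below the share of the list but includes the 46.0% on the rest. On the rest of the chromosome, 26.3% of HT29 peaks overlapped COLO320DM, just under the cluster interval. Of COLO205 peaks there, 44.7% overlapped HT29 and 40.4% overlapped COLO320DM, both inside the cluster intervals.

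Each of the other long lists overlapped less than 20% of the COLO320DM cluster peaks. HCT116 overlapped 18.1% of its cluster peaks (11.6% to 26.3%), beside 42% of the list and 64.4% on the rest of chromosome 19. HT29 overlapped 19% (12.3% to 27.3%), beside 27.1% of the list and 25.7% on the rest. COLO205 overlapped 17.2% (10.9% to 25.4%), beside 33.9% of the list and 39.9% on the rest. The intervals for HCT116 and COLO205 lie below both of the other shares. With a reciprocal overlap of 50%, COLO320DM shared 26.7% of HCT116 cluster peaks and 20.3% of HT29 cluster peaks. Under that rule HT29 shared 31.1% of COLO205 cluster peaks, and COLO205 shared 13.3% of HCT116 cluster peaks. Shares outside the clusters were not computed under that rule, so these values have no base rate beside them.

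The overlapping share was higher among input-covered than among input-poor cluster peaks in every pair of long lists, and the same held in every pair over the whole lists. On the rest of chromosome 19 the order turned for HCT116 peaks in HT29 (23.7% covered, 30.9% poor). It also turned there for COLO205 peaks in HT29 (41.7% and 48.4%), and it held in the other pairs. In HCT116, 10 of 11 covered and 12 of 34 poor cluster peaks overlapped COLO320DM (90.9% and 35.3%), beside 54.9% and 16.7% of the list. In HT29, 13 of 18 covered and 10 of 41 poor cluster peaks overlapped COLO320DM (72.2% and 24.4%), beside 53.9% and 9.49% of the list. In COLO205, 8 of 11 covered and 14 of 34 poor cluster peaks overlapped HT29 (72.7% and 41.2%), beside 50.8% and 44.5% of the list. Covered cluster peaks of COLO320DM had overlaps of 7 of 31 with HCT116 (22.6%), 8 of 31 with HT29 (25.8%) and 9 of 31 with COLO205 (29.0%), beside 56.6%, 36.3% and 45.6% of the list.

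Peaks in no other list made up 67.2% of the COLO320DM cluster peaks (78 of 116, 57.9% to 75.7%), against 30.4% on the rest of chromosome 19 and 47.1% of its list. The share was 46.7% in HCT116 (21 of 45), beside 38.4% of the list, 42.4% in HT29 (25 of 59), beside 36.3%, and 33.3% in COLO205 (15 of 45), beside 34.9%. In these 3 lists the interval includes the share of the list. Of the lone peaks, 19 of 78 were input-covered in COLO320DM, 4 of 25 in HT29, and none of the 21 in HCT116 or the 15 in COLO205. Over the whole lists, lone peaks were input-covered in 41.6% of cases in COLO320DM, 13.9% in HT29, 42.9% in HCT116 and 38.5% in COLO205, so the HT29 count (16%) is near its list. Lone COLO320DM cluster peaks had a median of 5 reads and a width of 87.5 nt, against 8 reads and 121.5 nt in its shared cluster peaks. Over its whole list the medians were 6 reads and 88 nt for lone peaks, against 18 reads and 143 nt for shared peaks.

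Merged across lists, the cluster peaks formed 187 regions. COLO320DM alone held 78 of them (41.7%), HT29 alone 25 (13.4%), HCT116 alone 21 (11.2%) and COLO205 alone 15 (8.02%). Over all regions of the genome these shares were 18.2%, 14.4%, 15.8% and 15.4% in the same order. The commonest pairs were HT29 with COLO205 (10 regions, 5.35%) and HCT116 with COLO320DM (8, 4.28%). Both were near the shares over all regions, 5.94% and 4.70%. By number of lists, 139 regions were in 1 list (74.3%), 29 in 2, 13 in 3 and 6 in 4 (3.21%). On the rest of chromosome 19, 720 of 1158 regions were in 1 list (62.2%) and 85 (7.34%) were held by the 4 long lists. Over the genome the 4 long lists held 6.87% of 22315 regions together.

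**Figure D4:**
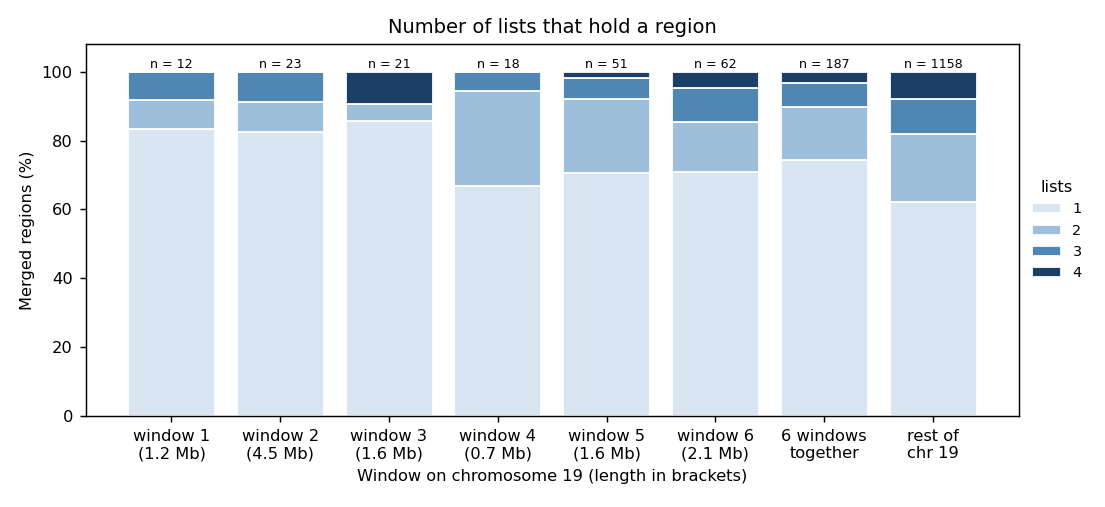
Percentage of merged regions held by 1, 2, 3 or 4 lists, in each window, in the 6 windows together and on the rest of chromosome 19. The number of regions stands above each bar. In the clusters 74.3% of 187 regions are in 1 list, and regions held by 4 lists appear only in windows 3, 5 and 6.

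The 4 long lists together held 2 regions in window 3, 1 in window 5 and 3 in window 6. At the start of window 3, the region 36726536 to 36726805 had a fold of 7.60 in HCT116 and 6.41 in HT29, and 8.08 in COLO320DM and 9.03 in COLO205, on 30, 23, 28 and 18 reads in that order. It was input-covered in all 4 lists, with 5.00, 4.0, 4.0 and 2.0 input fragments, and its summits lay within 11 nt of each other. Close by, the region 36728568 to 36728982 had a fold of 6.46 in HCT116 and 8.86 in HT29, and 5.27 in COLO320DM and 12 in COLO205. In HCT116 and COLO320DM the first of these was the cluster peak with the third highest −log10 p.

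In window 5, the region 52394057 to 52394247 had a fold of 5.84 in HCT116 and 12.7 in HT29, and 6.76 in COLO320DM and 5.80 in COLO205. HT29 stood highest there, on 13 reads over 0.150 input fragments, and this was its strongest cluster peak by both fold and p-value. In window 6, the region 57722747 to 57722982 had a fold of 10.9 in HCT116 and 5.23 in HT29, and 6.69 in COLO320DM and 14.7 in COLO205, on 30, 15, 23 and 30 reads, and was input-covered in all 4.

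The region 57910119 to 57910317 of window 6 had the highest cluster fold of both HCT116 (11.8, 13 reads) and COLO205 (17.6, 21 reads). HT29 had a fold of 7.17 there on 16 reads and COLO320DM 6.10 on 13 reads. Local input separated these pairs, at 0.30 fragments in HCT116 and 0.450 in COLO205, and 2.0 in both HT29 and COLO320DM. The last of the 6, 58868731 to 58868890, had similar folds in the lists, 6.27 in HCT116 and 5.57 in HT29, and 7.01 in COLO320DM and 6.44 in COLO205.

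Windows 1, 2 and 4 had no region in 4 lists. Their regions in 3 lists with the highest minimum rank of fold were 12691006 to 12691140 in window 1, 21469572 to 21469693 in window 2 and 44611584 to 44611733 in window 4. The first had folds of 6.28 in HCT116, 4.15 in HT29 and 4.38 in COLO320DM, on 4 to 6 reads. The window 2 region had 5.67 in HT29, 5.77 in COLO320DM and 8.89 in COLO205, on 5 to 9 reads, and was input-poor in all 3 lists. The window 4 region had 6.35 in HT29, 6.68 in COLO320DM and 4.28 in COLO205, on 6 to 10 reads. These rest on fewer reads than the shared regions at 36726536 and 57722747.

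All 19 regions in 3 or 4 lists included COLO320DM, the list with the most cluster peaks. None of the 187 cluster regions was thus held by HCT116, HT29 and COLO205 without COLO320DM. Regions in exactly those 3 lists made up 35 of 1158 on the rest of chromosome 19 (3.02%). Over the genome they made up 715 of 22315 (3.20%). Another 7 regions on the rest (0.604%) and 312 over the genome (1.40%) were in those 3 lists and HCT15, without COLO320DM. In 14 of the 19, the summits lay within 100 nt of each other, and the median spread was 41 nt. Input covered 4 of the 19 in every list that held them and 3 in none. Summit spread and input of shared regions were not counted outside the clusters. The number of regions held by the 4 long lists was 3 with a −log10 q of 5 or more and also 3 with reciprocal overlap. Leaving out the HCT116 list, the remaining 3 long lists held 12, and leaving out COLO205 they held 10.

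**Figure D5:**
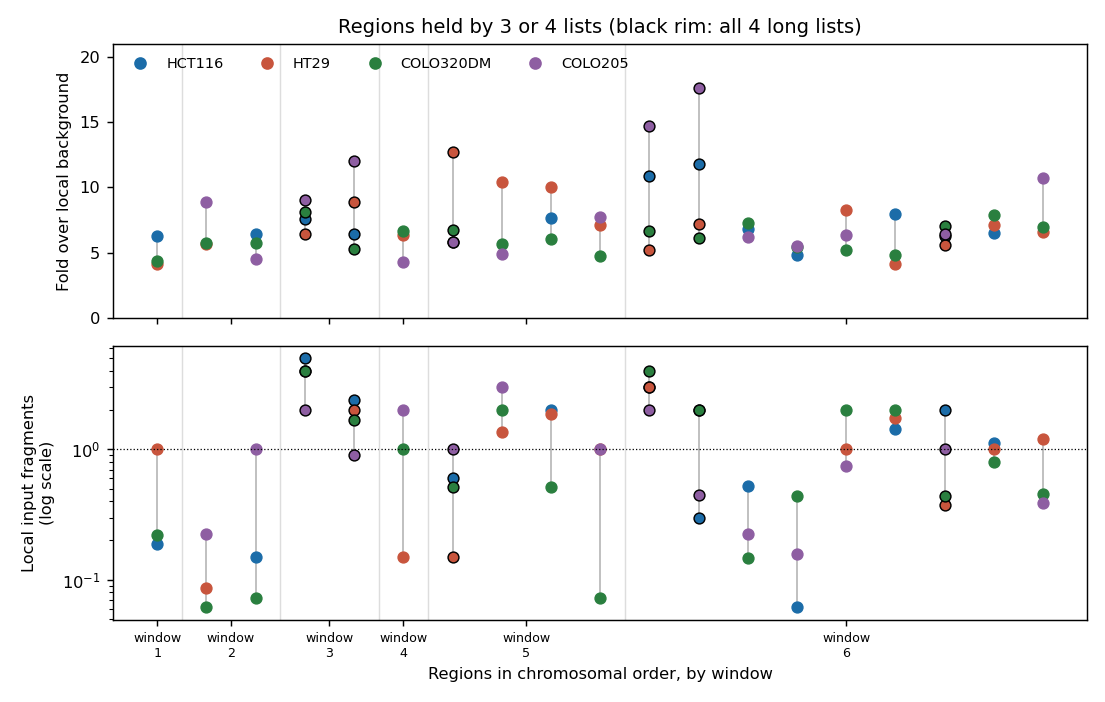
Fold over local background (top) and local input fragments on a log scale (bottom) for the 19 cluster regions in 3 or 4 lists, in chromosomal order, 1 point per list. Black rims mark the 6 regions held by the 4 long lists, and the dotted line marks 1 input fragment. Folds reach 17.6 in COLO205 and 12.7 in HT29, and 4 regions lie at or above the line in every list that holds them.

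Several of the strongest cluster peaks belonged to 1 or 2 lists. The top peak of COLO320DM, 59011165 to 59011563 near the end of window 6, had a fold of 15.3 on 18 reads and stood at percentile 99.2 of its list. COLO205 had its widest cluster peak at the same place, 59011180 to 59011562, with a fold of 14.0 on 17 reads, and HCT116 and HT29 had none. Both were input-poor, with 0.380 fragments in COLO320DM and 0.525 in COLO205.

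The next COLO320DM peaks, 58866139 to 58866251 (fold 11.9, 14 reads) and 58865810 to 58865966 (fold 11.1, 13 reads), were in no other list. In HCT116, the third highest fold was the lone peak 44300445 to 44300654 at the start of window 4, with 8.53 on 8 reads over 0.0900 input fragments. COLO205 had the lone peak 12021486 to 12021669 in window 1, with a fold of 14.3 on 16 reads over 0.345 fragments. HT29 and COLO320DM shared 52570557 to 52570764 in window 5, where HT29 had a fold of 11.1 on 13 reads.

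The widest cluster peaks were long stretches in window 5. HT29 had 53150842 to 53151455, 614 nt wide with a fold of 10.1 on 22 reads, and HCT116 had 53150862 to 53151474, 613 nt wide with a fold of 7.62 on 16 reads. COLO320DM had a peak of 303 nt in the same region. HT29 also had 52597666 to 52598197, 532 nt wide with a fold of 10.4 on 19 reads, in a region it shared with COLO320DM and COLO205. The widest COLO320DM peak, 23505916 to 23506323 in window 2, was 408 nt wide on 5 reads.

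Peaks within 5 kb of each other were chained into loci, since a transcript can carry several peaks and different lists can mark different parts of it. Over all lists the clusters held 126 loci, of which 78 were marked by 1 list, 25 by 2, 17 by 3 and 6 by 4. COLO320DM marked 85 loci, 46 of them alone (54.1%), HCT116 38 (15 alone), HT29 44 (11 alone) and COLO205 36 (6 alone). Of the 78 lone COLO320DM peaks, 27 (34.6%) lay in a locus that another list also marked. Loci were not compared across lists outside the clusters, so these shares have no base rate beside them. By single peaks, 47.1% of the whole COLO320DM list was in no other list.

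Within a list, 28.9% of HCT116 cluster peaks shared a locus with another peak of the list, against 53.5% on the rest of chromosome 19. The shares were 35.6% in the clusters and 49.3% on the rest in HT29, 41.4% and 52.4% in COLO320DM, and 37.8% and 40.7% in COLO205. Denser peaks fall within 5 kb of each other more often by number alone. Peaks of HCT116, HT29 and COLO205 were denser on the rest, so their shares do not show less grouping in the clusters. The group with the most peaks lay in window 6 at 58980832 to 58993691. COLO320DM had 8 peaks there, 7 of them input-covered, with folds of 4.76 to 8.38 on 8 to 24 reads. HCT116 had 2 peaks in that stretch, and HT29 and COLO205 had none.

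A second COLO320DM group in window 6, 58861290 to 58868836, held 5 peaks with folds of 5.66 to 11.9, all input-poor, where the other 3 long lists had 1 peak each. HT29 had its own group of 6 input-poor peaks in window 4 at 44474484 to 44478403, on 4 to 7 reads, where COLO320DM and COLO205 had 1 peak each and HCT116 had none. In window 5, HCT116 had 3 input-poor peaks at 52826365 to 52829145, on 3 or 4 reads, and COLO320DM also had 3 there. The covered group at 58980832 is thus the one with the most input behind it among groups of 3 or more peaks.

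The peak with the deepest local input in the clusters had the lowest fold of the COLO320DM cluster peaks. It lay at 59069860 to 59069950 in window 6, where COLO320DM had 47 reads over 29.0 input fragments and a fold of 2.43. COLO205 had 26 reads over 12 fragments and a fold of 3.54 at 59069863 to 59069972, also its lowest cluster fold. This position was chosen after its values were seen.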

How the data were processed

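MeRIP-seq peak lists of 5 IP libraries, 1 per line, were analysed. Some 300 µg of total RNA per line was cut to about 100 nt, with 10% kept as input, per the labels' protocols. The tools cutadapt, FastQC, BWA and MACS2 and the build hg19 stand in the submitters' processing notes, with versions and parameters not given in the sources used here. The authors' deposited lists give a fold enrichment (a ratio), a −log10 p-value and −log10 q-value, a score and positions per peak. Fold and −log10 values are the authors' own, used here for description and filtering inside each list, and the score was not used.

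IP reads and local background were recovered under the MACS2 model with a pseudocount of 1, and 100% of peaks met their −log10 p within 0.001. Each HCT15 read counted as 0.322. Background was put in fragments of the control, taken to be the line's input, which no source used here states. Input-covered meant at least 1 fragment (tolerance 0.0008). Depths assume a genome of 2.7 Gb. On simulated peaks, 100% of reads were recovered for 1344 unscaled and 905 scaled peaks.

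Shares carry Clopper-Pearson intervals, densities Poisson, density ratios exact conditional and medians order-statistic intervals. No p-value was computed, since each line had 1 library. Comparisons used chromosomes 1 to 22, X and Y. Software was Python 3.11.15 with scipy 1.17.1, pandas 2.3.3, numpy 2.4.6 and, for figures, matplotlib 3.10.9. Members, windows and lists were chosen with earlier results of these data known. The peaks named are, in each list, the top 3 by fold and the top 3 by −log10 p, the widest peak of each long list, and in each window the region of 4 long lists (or of the most lists) whose lowest fold percentile is highest. Others, including groups of neighbouring peaks, were named after their values were seen. No hg19 genome or annotation was used, so no sequence or gene is given for a peak.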

Additional observations from a re-analysis of the deposited data

How the results depend on the processing

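Of 65 alternatives over 24 values, 49 moved a value by less than its counting interval (1.5 times for counts) and 16 by more. The 49 include every alternative of the HCT15 density ratio, which could only stay 0 because that list has 0 cluster peaks. Requiring a −log10 q of at least 5 moved the COLO320DM density ratio to 0.712 and its median width to 126.5 nt, and the regions in the 4 long lists to 3. Leaving out window 6, added after the data were seen, moved that ratio to 0.839. Requiring at least 5 IP reads, also added afterwards, moved it to 0.775 (0.596 to 0.996) and the HCT116 ratio to 0.183. These COLO320DM ratios lie below 1, where that of all peaks is 1.11. The interval no longer includes 1 with the q or read filter, and it does without window 6. Using 1 threshold of input for all lists moved the input-covered share to 11.9% in HT29 and 2.22% in COLO205. Input-covered peaks alone had a median fold of 6.50 in both HCT116 and HT29. Reciprocal overlap of 50% moved the share of HCT116 peaks in COLO320DM to 26.7%, of HT29 peaks in COLO320DM to 20.3% and of COLO205 peaks in HT29 to 31.1%, and the regions in the 4 long lists to 3. Leaving out each list in turn gave 6 to 12 regions, with 12 without HCT116 and 10 without COLO205. The cause of these moves was not tested. Narrowing the windows by 0.1 Mb, or taking the longest stretch with no peak (3.88 Mb, also added afterwards) out of the rest, kept every density ratio within its interval. No paired analysis was possible because each line has 1 library and no result comes from a test.

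The lists rest on few reads, 5 to 7 at the median cluster peak, and a peak that a list lacks is not shown to be absent from that line. The HCT15 upper limit for the density ratio was 0.618, and 3.44 at a −log10 q of at least 5. No peak is tied to a gene, and the lists do not say how reads that match several related zinc finger genes were handled.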
